A study of Mus musculus with 4 samples.

Results

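Chemokine ligands are small secreted proteins that draw leukocytes along a gradient, and they are grouped as CC or CXC by the spacing of their first cysteines. Each binds seven-transmembrane receptors on the responding cell. Microglia, the resident macrophages of the brain, and the macrophages at its borders make several of them. Interferons induce Cxcl9 and Cxcl10, whereas Ccl2, Ccl3, Ccl4 and Cxcl2 are better known as targets of NF-kB after injury or infection.

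The 10 genes described here are the interferon-induced and inflammatory ligands Cxcl9, Cxcl10, Cxcl16, Ccl2, Ccl3, Ccl4, Ccl5, Ccl7, Ccl12 and Cxcl2, taken by symbol from a table of 26051 features. All 10 were found and all 10 had enough counts to be tested. The data are counts of poly(A) RNA from cells isolated as microglia at embryonic day 14. There were 2 libraries titled ko, numbered 1 and 3, in which Hat1 was deleted conditionally by Cre and loxP, and 2 libraries titled ff, numbered 2 and 5. Hat1 encodes a histone acetyltransferase. The labels name neither the Cre driver, the deleted exons, the strain nor the number of embryos behind a library, and do not spell out ff, whose libraries serve as the comparison. Whether libraries came from separate animals is not stated, so p-values cover only the spread among the 4 libraries.

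The libraries held between 14814846 and 18990917 counts. Hat1 itself had 39.2 and 36.6 CPM (counts scaled to library size) in ko libraries 1 and 3, against 44.3 and 71.4 CPM in ff libraries 2 and 5. Its log2 fold change (ko minus ff, as throughout) of -0.61 ± 0.23 (SE) did not pass the threshold of an adjusted p of 0.05 by edgeR (adjusted p = 0.298). With a library left out, the lone library of its group is assumed to vary like the other group. On that footing the log2 fold change was -0.67 without ko library 1 (edgeR adjusted p = 0.000114), -0.57 without ko library 3 (0.612), -0.91 without ff library 2 (0.00286) and -0.25 without ff library 5 (0.534), so the call depended on the library left out. Transcripts that lack the deleted exons may still be counted, so the titles are checked only in part. Ko library 1 held 3188 counts of the Y-linked gene Ddx3y and 3 counts of Xist, whereas ko library 3 held 3986 counts of Xist and ff libraries 2 and 5 held 2847 and 3646. The ko libraries thus differed in sex and came from different embryos, while these transcripts do not tell whether the ff libraries did. Defining microglial markers were abundant in every library: P2ry12 averaged 932.6 CPM in ko and 952.1 CPM in ff, and Tmem119 averaged 422.7 CPM in ko and 276.6 CPM in ff. Markers of border-associated macrophages were abundant too, with Mrc1 at 5126 CPM in ko and 6978 CPM in ff.

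Of the 10 ligands, 3 rose in ko and 0 fell by edgeR's quasi-likelihood test, with p-values adjusted over all 15840 genes tested. The genes that rose were Cxcl9, Cxcl10 and Ccl5. Over all tested genes 1.7% passed the threshold, with 1.19% higher and 0.518% lower. At an unadjusted p of 0.05, 4 of the ligands were higher and 2 were lower, where 16.2% of all tested genes passed, with 8.62% higher and 7.56% lower. The median log2 fold change was 0.13 over the 10 ligands and 0.01 over all tested genes, and the 7 ligands that did not pass lay on either side of 0. The groups did not overlap in 7 ligands, 5 higher in ko and 2 lower, a separation seen in 49.6% of all tested genes (25.8% higher and 23.8% lower). DESeq2 called 3 ligands higher and 1 lower, against 2.54% and 1.68% of the genes it tested (4.22% in all). By limma-voom 1 was higher and 0 lower, against 0.827% and 0.278% (1.1% in all). Without ko library 1 and without ko library 3 the calls were 3 higher and 1 lower, while 6.07% and 7.34% of all genes passed. Without ff library 2 and without ff library 5 they were 3 higher and 0 lower, while 1.19% and 2.73% of all genes passed.

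**Figure D1:**
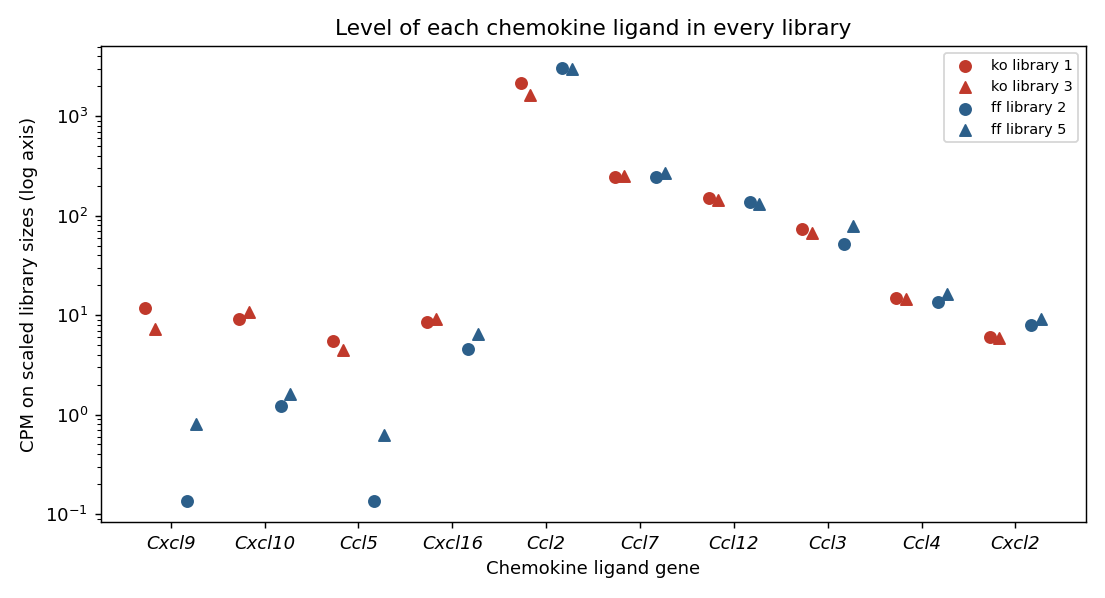
CPM of each chemokine ligand in ko libraries 1 and 3 (red) and ff libraries 2 and 5 (blue), on a log axis, with 1 point per library. Cxcl9, Cxcl10 and Ccl5 lie lowest in the ff libraries and between 4.41 and 11.8 CPM in the ko libraries, while Ccl2 lies far above the other ligands in every library.

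Cxcl10, an interferon-induced ligand of the receptor Cxcr3 on activated T cells, had 172 and 169 counts in ko libraries 1 and 3, against 18 and 26 counts in ff libraries 2 and 5. In CPM these were 9.16 and 10.7 in ko, against 1.23 and 1.61 in ff. The ko libraries were close to each other and both far above the ff libraries. The difference came to 6.91-fold (log2 fold change 2.79 ± 0.27 (SE), edgeR adjusted p = 0.0019). It passed the threshold under all 10 alternatives to the processing, and leaving out each library in turn gave log2 fold changes between 2.61 and 2.98.

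Cxcl9, the Cxcr3 ligand best known as a target of interferon gamma, had 221 and 115 counts in ko libraries 1 and 3. The ff libraries 2 and 5 held 2 and 13 counts. Cxcl9 was thus the least counted ligand together with Ccl5 in ff, and the libraries within each group differed more than for Cxcl10. Its levels were 11.8 and 7.25 CPM in ko, against 0.136 and 0.807 CPM in ff. The log2 fold change was 4.28 ± 0.58 (SE), with a 95% interval of 2.87 to 5.69 and an adjusted p of 0.0246 by edgeR. Leaving out ff library 2 gave 3.55 and leaving out ff library 5 gave 6.03. By limma-voom the adjusted p was 0.0629.

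Ccl5, a chemoattractant that T cells, natural killer cells and activated macrophages make, had 103 and 70 counts in ko libraries 1 and 3, against 2 and 10 counts in ff libraries 2 and 5. The groups were apart, with 5.48 and 4.41 CPM in ko and 0.136 and 0.621 CPM in ff. Its log2 fold change was 3.65 ± 0.53 (SE), with a 95% interval of 2.42 to 4.89 and an adjusted p of 0.0182 by edgeR. Leaving out ff library 2 gave 2.98, leaving out ff library 5 gave 5.08, and limma-voom returned an adjusted p of 0.0529. Ff library 5 was the higher ff library for Cxcl9, Cxcl10 and Ccl5 alike. The summed level of these 3 ligands was 26.4 and 22.3 CPM in ko libraries 1 and 3, against at most 3.04 CPM in either ff library. Ko library 1 was the one with Y-linked transcripts, and without it the log2 fold changes were 3.87 for Cxcl9, 2.88 for Cxcl10 and 3.47 for Ccl5.

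Markers of T and natural killer cells were examined beside these ligands. Of 15 on the list, 13 were in the table and 10 were tested. All 10 had positive log2 fold changes with a median of 1.30. By edgeR 1 rose, with 6 higher at an unadjusted p of 0.05, and 0 were called by DESeq2 or limma-voom. The gene that rose was Gzma, a protease of cytotoxic lymphocytes, at 2.34 and 2.90 CPM in ko libraries against 0.136 and 0.186 CPM in ff libraries (log2 fold change 3.95 ± 0.54 (SE), adjusted p = 0.0131, and 0.0503 by limma-voom, with no adjusted p given by DESeq2). The summed level of the list was 23.1 and 27.6 CPM in ko libraries, against 14.5 and 10.1 CPM in ff libraries, a ratio of 2.06. The summed level of Cxcl9, Cxcl10 and Ccl5 differed by a ratio of 10.7. Within the marker list, ratios of summed counts ran from 0.641 for Cd3e to 16.0 for Gzma. They were 14.7 for Gzmb and 9.18 for Ncr1, but 1.55 for Cd2 and 1.59 for Lck, the most counted markers. Of the T cell receptor subunits, Cd3d had 37 and 40 counts in ko libraries, against 14 and 19 in ff libraries, Cd3g had 23 and 18 in ko against 17 and 7 in ff, and Cd3e had 6 and 7 in ko against 12 and 6 in ff. Cd3e was the one gene of the 13 with a ratio of summed counts below 1, at 0.641. Of the cytotoxic and natural killer genes, Nkg7 had 28 and 39 counts in ko against 8 and 9 in ff, Gzmb had 18 and 15 in ko against 2 and 0 in ff, and Ncr1 had 15 and 16 in ko against 0 and 3 in ff. None of these passed the threshold, and Cd3e had too few counts to be tested. In bulk RNA a change in the number of cells of a type and a change in RNA per cell cannot be told apart, and the part of lymphocytes in the ligand result was not tested.

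Promoter sequences are shown for a pair of ligands that rose and for a ligand that did not pass, because known inducers of these genes act through short motifs near the start site. RefSeq windows from 250 bases before to 50 bases after the annotated start (build GRCm38.p6) matched 5 of the 10 ligands: Cxcl9, Cxcl10, Ccl3, Ccl12 and Cxcl2. Both strands were searched for the ISRE core (GAAA, any 2 bases, then GAAA), GAS (TTCNNNGAA), a kappa B core (GGGA, any 4 bases, then CC), AP-1 (TGANTCA) and a TATA box (TATAAA). Capitals mark the matches. The windows run 5′ to 3′ on the strand of the gene: chr5:92348840-92349139 on the minus strand for Cxcl10, chr5:92328030-92328329 on the minus strand for Cxcl9 and chr5:90903649-90903948 on the plus strand for Cxcl2.
Cxcl10: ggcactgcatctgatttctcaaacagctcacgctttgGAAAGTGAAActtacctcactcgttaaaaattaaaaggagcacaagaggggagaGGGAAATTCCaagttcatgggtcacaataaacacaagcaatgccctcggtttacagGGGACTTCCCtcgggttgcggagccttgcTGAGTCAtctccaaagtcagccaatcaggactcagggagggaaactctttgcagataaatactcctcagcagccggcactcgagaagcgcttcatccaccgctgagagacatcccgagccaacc
Cxcl9: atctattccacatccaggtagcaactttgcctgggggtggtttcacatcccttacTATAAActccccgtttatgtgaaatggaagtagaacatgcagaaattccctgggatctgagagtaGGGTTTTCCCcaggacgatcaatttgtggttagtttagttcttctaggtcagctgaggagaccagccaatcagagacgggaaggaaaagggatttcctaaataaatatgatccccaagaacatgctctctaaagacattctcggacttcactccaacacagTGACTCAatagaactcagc
Cxcl2: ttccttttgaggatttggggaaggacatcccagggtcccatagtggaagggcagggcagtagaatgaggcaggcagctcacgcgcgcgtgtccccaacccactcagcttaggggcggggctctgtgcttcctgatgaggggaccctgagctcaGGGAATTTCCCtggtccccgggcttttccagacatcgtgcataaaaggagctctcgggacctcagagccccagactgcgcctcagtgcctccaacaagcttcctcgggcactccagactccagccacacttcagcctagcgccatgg

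In the Cxcl10 window the ISRE core stood at bases -213 to -204 from the start site, followed by kappa B cores at -159 to -150 and at -103 to -94, where the second matched on both strands, and by AP-1 at -74 to -68. In the Cxcl9 window a TATA box letter match lay at -195 to -190, a kappa B core on the opposite strand at -130 to -121 and AP-1 at 32 to 38. For Cxcl2 overlapping kappa B cores on opposite strands spanned -97 to -87. Ccl12 held a TATA box at -31 to -26 and Ccl3 held none of the motifs searched. Over 32544 distinct windows of this length, 3.45% held the ISRE core, 8.33% GAS, 20.8% the kappa B core, 7.79% AP-1 and 13.6% the TATA box. A kappa B core was thus found in ligands on either side of the threshold. These are matches of letters in short windows and were not measured as binding.

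**Figure D2:**
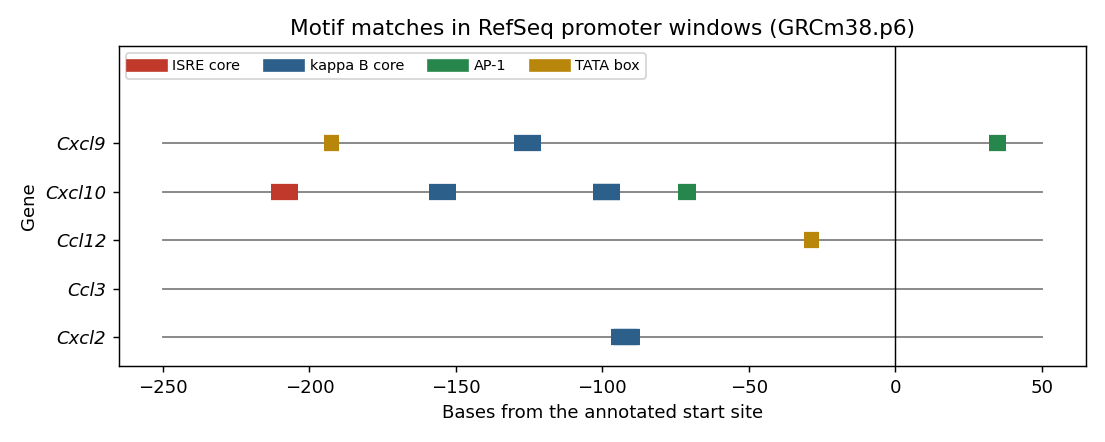
Motif matches in the promoter windows of 5 chemokine ligands, by distance in bases from the annotated start site (vertical line), with each motif in its own colour. The ISRE core appears in 1 of the 5 windows, that of Cxcl10, and the kappa B core in 3.

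Cxcl16, a transmembrane ligand of Cxcr6 that the protease Adam10 sheds from the cell surface, had 8.62 and 9.14 CPM in ko libraries 1 and 3, against 4.57 and 6.40 CPM in ff libraries 2 and 5. The groups were apart, by a smaller margin than for Cxcl10. The log2 fold change of 0.69 ± 0.24 (SE), with a 95% interval of 0.14 to 1.24, did not pass the threshold (edgeR adjusted p = 0.217). It missed under all 10 alternatives as well, with adjusted p between 0.0984 and 0.817.

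Ccl2, Ccl7 and Ccl12 are monocyte chemoattractants that act on Ccr2 and lie near each other on chromosome 11. Ccl2 had 40875 and 25845 counts in ko libraries 1 and 3, against 45268 and 48183 counts in ff libraries 2 and 5. This was 2176 and 1630 CPM in ko, against 3086 and 2993 CPM in ff, so that both ko libraries lay below both ff libraries and ko library 3 lay lowest. The log2 fold change was -0.68 ± 0.14 (SE), with a 95% interval of -1.01 to -0.34. It did not pass the threshold by edgeR (adjusted p = 0.0901). Without ko library 1 it passed, at -0.91 (adjusted p = 2.16e-07 by edgeR), and without ko library 3, at -0.49 (adjusted p = 0.0182 by edgeR). It did not pass without ff library 2, at -0.66 (adjusted p = 0.629 by edgeR), or without ff library 5, at -0.72 (adjusted p = 0.282 by edgeR). DESeq2 gave an adjusted p of 1.83e-05 and limma-voom 0.0633.

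Its neighbours did not share this difference in size. Ccl7 had 242.3 and 249.4 CPM in ko libraries 1 and 3, against 245.2 and 268.2 CPM in ff libraries 2 and 5, and the groups overlapped. Its log2 fold change was -0.06 ± 0.08 (SE), with a 95% interval of -0.24 to 0.12 (edgeR adjusted p = 0.743). Ccl12 had 150.5 and 143.9 CPM in ko, against 138.2 and 129.6 CPM in ff, with the groups narrowly apart. Its log2 fold change was 0.14 ± 0.08 (SE), with a 95% interval of -0.04 to 0.32 (edgeR adjusted p = 0.435). The number of Ccl2 counts per Ccl12 count, which no scaling can alter, was 14.5 and 11.3 in ko libraries, against 22.3 and 23.1 in ff libraries. Per Ccl7 count it was 8.98 and 6.53 in ko libraries, against 12.6 and 11.2 in ff libraries. Both ratios were lower in both ko libraries, but no exact permutation test on 4 libraries, two-sided, can reach a p under 0.333, so they were not tested.

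Markers of border-associated macrophages were examined beside Ccl2. Of 10 tested, 2 had positive log2 fold changes, the median was -0.28, and 1 fell while 0 rose by edgeR; at an unadjusted p of 0.05, 5 were lower and 0 higher. DESeq2 called 3 lower and limma-voom 1. The number that edgeR called lower changed with the library left out, as did the share of all genes that passed. Cd163, which clears haptoglobin-bound haemoglobin, fell to 414.2 and 496.8 CPM in ko libraries, against 822.0 and 840.2 CPM in ff libraries (adjusted p = 0.0040 by edgeR). The summed level of the list was 15653 and 17735 CPM in ko libraries, against 22910 and 20195 CPM in ff libraries, a ratio of 0.775. The part of these cells in the Ccl2 difference was not tested.

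Ccl3 and Ccl4, macrophage inflammatory proteins, overlapped between the groups. Ccl3 had 74.3 and 67.5 CPM in ko libraries 1 and 3, against 52.3 and 77.9 CPM in ff libraries 2 and 5. The ko libraries thus lay between the ff libraries, and the log2 fold change was 0.12 ± 0.19 (SE), with a 95% interval of -0.37 to 0.61 (edgeR adjusted p = 0.809). Ccl4 had 14.9 and 14.5 CPM in ko, against 13.4 and 16.4 CPM in ff, and its log2 fold change was -0.02 ± 0.17 (SE), 95% interval -0.41 to 0.37 (edgeR adjusted p = 0.968). For both genes ff library 5 was the highest library and ff library 2 the lowest. Without ff library 2 the log2 fold change of Ccl3 was -0.14, and without ff library 5 that of Ccl4 was 0.11, so neither had a stable sign. The RefSeq models of Ccl3 and Ccl4 on GRCm38.p6 overlap, and the strand setting of the counting is not given in the sources used here, so some reads of this pair may be divided between them.

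Cxcl2, a neutrophil attractant that acts on Cxcr2, had 6.02 and 5.93 CPM in ko libraries 1 and 3, against 7.91 and 9.13 CPM in ff libraries 2 and 5. Both ko libraries lay below both ff libraries. The log2 fold change of -0.51 ± 0.21 (SE), with a 95% interval of -1.0 to -0.03, did not pass the threshold (edgeR adjusted p = 0.289).

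**Figure D3:**
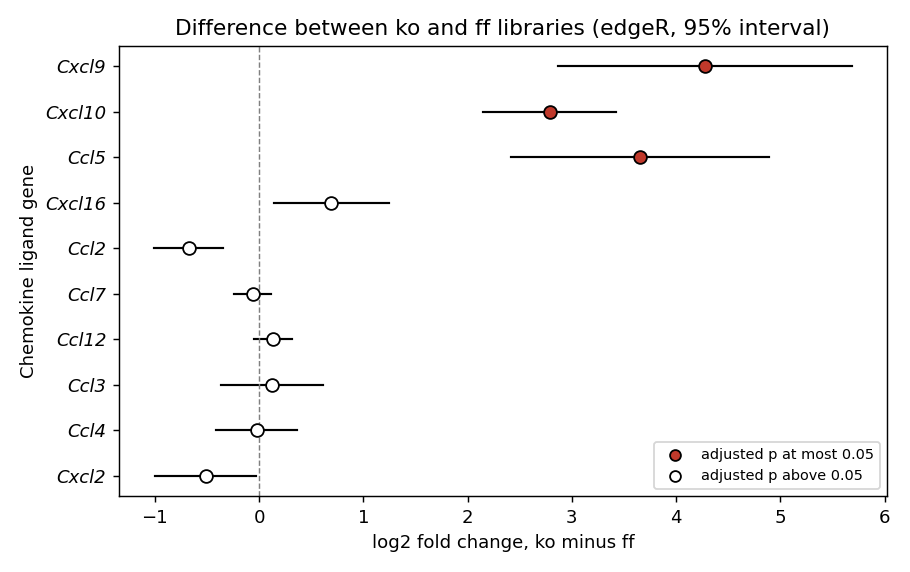
Log2 fold change (ko minus ff) of each chemokine ligand by edgeR, with its 95% interval as a line; filled points have an adjusted p of at most 0.05. Cxcl9, Cxcl10 and Ccl5 are filled, at 4.28, 2.79 and 3.65, and the other 7 ligands lie between -0.68 and 0.69.

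Most of the RNA counts of the 10 ligands were those of Ccl2. It held 80.6% and 76.1% of the counts of the 10 ligands in ko libraries 1 and 3, against 87.0% and 85.4% in ff libraries 2 and 5. The 10 ligands together came to 2699 and 2142 CPM in ko libraries, against 3549 and 3503 CPM in ff libraries, a ratio of 0.686. Leaving out Ccl2, an alternative added after the data were seen, the sums were 523.1 and 512.6 CPM in ko libraries, against 463.1 and 510.7 CPM in ff libraries, a ratio of 1.06. The fold rise of Cxcl9, Cxcl10 and Ccl5 thus involved few of the ligand counts.

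To compare ligands with each other, CPM were divided by the length in kilobases of the longest protein-coding transcript in GENCODE M21. In ko the order of mean levels per kilobase was Ccl2 (2341 CPM per kilobase), Ccl7 (306.9), Ccl12 (274.1), Ccl3 (92.5), Ccl4 (22.3), Ccl5 (9.30), Cxcl10 (7.32), Cxcl16 and Cxcl9 (3.29 each) and Cxcl2 (3.21). In ff it was Ccl2 (3739 CPM per kilobase), Ccl7 (320.5), Ccl12 (249.4), Ccl3 (85.0), Ccl4 (22.6), Cxcl2 (4.58), Cxcl16 (2.03), Cxcl10 (1.05), Ccl5 (0.712) and Cxcl9 (0.163). The first 5 places were the same in both groups, and the library values of neighbours there did not overlap. Among the lower places, the library values of Cxcl9, Cxcl16 and Cxcl2 all overlapped each other in ko. In ff those of Ccl5 overlapped those of Cxcl10 and Cxcl9.

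The other chemokine ligands fixed as a list numbered 28, of which 27 were in the table and 14 were tested. By edgeR 0 passed in either direction, with 1 higher and 4 lower at an unadjusted p of 0.05, and DESeq2 called 1 higher and 0 lower while limma-voom called 0. The number and direction of the edgeR calls changed with the library left out, and so did the share of all genes that passed. Their median log2 fold change was -0.31, below the 0.01 of all tested genes. Pf4, a platelet and border macrophage chemokine, averaged 960.6 CPM in ko and 979.0 CPM in ff, and Ccl9 averaged 392.8 CPM in ko and 443.4 CPM in ff.

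Of the 7 receptors through which the 10 ligands act, 1 rose and 0 fell by edgeR, with 4 higher and 0 lower at an unadjusted p of 0.05. DESeq2 called 1 higher and 0 lower and limma-voom 0. The gene that rose was Ccr2, the receptor of Ccl2, Ccl7 and Ccl12, with 61.1 and 59.5 CPM in ko libraries, against 43.5 and 40.9 CPM in ff libraries. Its log2 fold change was 0.51 ± 0.09 (SE). The edgeR adjusted p was 0.0405, and it was 0.0934 without ff library 2, 0.127 without ff library 5 and 0.0619 by limma-voom. Ccr2 also stands on the monocyte list, where 1 of 7 tested was higher and 0 lower by edgeR (3 and 0 at an unadjusted p of 0.05, 1 and 0 by DESeq2, 0 by limma-voom, and 0 without ff library 2 or ff library 5) and the median log2 fold change was 0.35. The summed level of that list was 176.6 and 182.1 CPM in ko libraries, against 143.0 and 143.3 CPM in ff libraries. Cxcr3, the receptor of Cxcl9 and Cxcl10, had 47.0 and 52.9 CPM in ko libraries, against 58.0 and 49.5 CPM in ff libraries, and the groups overlapped (log2 fold change -0.11, 95% interval -0.37 to 0.16). Of 4 tested atypical or scavenging receptors 0 passed by edgeR, DESeq2 or limma-voom, with 1 higher at an unadjusted p of 0.05. Ccrl2, which presents chemoattractants at the cell surface, averaged 11.7 CPM in ko and 7.55 CPM in ff, and Ackr3, a scavenger of Cxcl12, averaged 1.81 CPM in ko and 1.06 CPM in ff.

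Genes that carry or restrain interferon signals to chemokine promoters were examined next. By edgeR 5 of 16 tested rose and 0 fell, with 8 higher and 2 lower at an unadjusted p of 0.05. DESeq2 called 5 higher and 0 lower, and limma-voom 4 and 0. With no filter on low counts edgeR called 7 higher and 2 lower, where 1386 genes passed over the whole table. Irf7, a transcription factor induced by interferon, had 45.7 and 45.2 CPM in ko libraries, against 7.30 and 7.64 CPM in ff libraries (log2 fold change 2.60 ± 0.13 (SE), edgeR adjusted p = 8.56e-05). Usp18, which restrains the type I receptor, had a log2 fold change of 1.74 (adjusted p = 0.000297 by edgeR). Stat2, a signal transducer of the type I interferon receptor, had 0.88 (edgeR adjusted p = 0.00182). Irf9, its partner on ISRE sites, had 0.52 with an adjusted p of 0.0358 by edgeR, 0.0726 without ff library 5 and 0.058 by limma-voom. These genes were measured in the same libraries as the ligands and give no independent evidence of their direction.

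Of 20 tested NF-kB factors and genes they induce, 1 rose and 0 fell by edgeR, with 4 higher and 0 lower at an unadjusted p of 0.05, and the median log2 fold change was 0.11. DESeq2 called 1 higher and 0 lower, and limma-voom 0. With a library left out, the number and direction of the edgeR calls changed, and so did the share of all genes that passed. The gene was Icam1, an adhesion molecule for leukocytes, at 102.7 and 100.3 CPM in ko libraries, against 69.0 and 74.2 CPM in ff libraries (log2 fold change 0.50 ± 0.08 (SE), edgeR adjusted p = 0.0288, 0.115 without ff library 2 and 0.0503 by limma-voom). Of 6 genes that shed or trim chemokines or degrade their mRNA, 1 fell and 0 rose by edgeR, with 2 lower and 1 higher at an unadjusted p of 0.05. DESeq2 called 1 lower and 1 higher, and limma-voom 0. Zfp36l1, which binds AU-rich elements and destabilises mRNA, fell to 198.5 and 190.3 CPM in ko libraries, against 347.4 and 272.8 CPM in ff libraries (log2 fold change -0.67 ± 0.12 (SE), edgeR adjusted p = 0.0431, and 0.061 by limma-voom).

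Other markers were measured beside the ligands. Of 11 tested microglia markers, Tmem119 rose (adjusted p = 0.0158 by edgeR) and Cx3cr1, the fractalkine receptor, fell (adjusted p = 0.00108 by edgeR). The median log2 fold change of the list was -0.03, with 4 of the 11 positive. Its summed level was 10746 and 10230 CPM in ko libraries, against 12344 and 12176 CPM in ff libraries. Cx3cr1 alone averaged 1198 CPM in ko and 2265 CPM in ff. Of 5 tested neutrophil markers 3 had positive log2 fold changes, and the median was 0.55. On this list 1 gene fell and 0 rose by edgeR, DESeq2 and limma-voom alike, with 0 higher at an unadjusted p of 0.05. The calls changed with either ko library left out. The gene that fell was Mmp9, a gelatinase that macrophages also make, at 47.6 CPM in ko and 90.5 CPM in ff. S100a8, a defining neutrophil gene, had 13 and 12 counts in ko libraries, against 24 and 6 counts in ff libraries. Dendritic cell, endothelial, mural and fibroblast, and neural markers had 0 genes past the threshold by edgeR, DESeq2 or limma-voom. Each of these 4 lists held 1 gene at an unadjusted p of 0.05. With some libraries left out, genes of the dendritic cell, endothelial, and mural and fibroblast lists passed, and none of the neural list. The share of all genes that passed changed as well. The median log2 fold changes of the 4 lists, with all libraries, were 0.28, 0.42, 0.75 and -0.19. The most counted dendritic cell markers, Zbtb46 and Cd209a, averaged 25.5 and 3.08 CPM in ko and 29.9 and 5.79 CPM in ff. The endothelial genes Cldn5 and Kdr had 529 and 160 counts in ko library 1 and 921 and 227 in ko library 3, against 311 and 127 in ff library 2 and 622 and 184 in ff library 5. The collagen gene Col1a1 had 166.4 and 94.6 CPM in ko libraries 1 and 3, against 61.8 and 93.6 CPM in ff libraries 2 and 5. Col1a2 had 156.4 and 87.9 CPM in ko, against 50.2 and 85.1 CPM in ff. For both genes ko library 3 thus lay close to ff library 5. Of the neural genes, Hes5 and Stmn2 averaged 85.1 and 30.3 CPM in ko and 87.8 and 32.9 CPM in ff. The part of these cells in the ligand results was not tested.

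**Figure D4:**
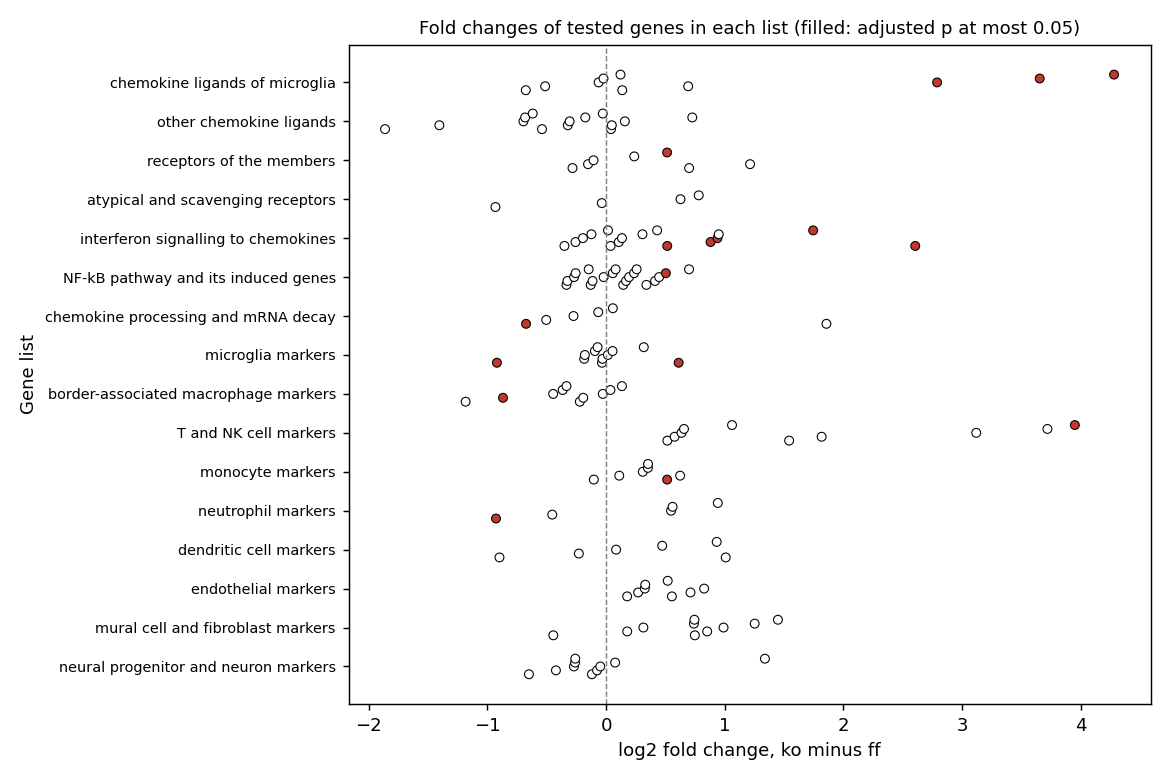
Log2 fold changes (ko minus ff) of the tested genes of each list, 1 point per gene, filled where the edgeR adjusted p is at most 0.05. The 3 filled ligands lie at 2.79 and above, and Irf7 at 2.60 and Gzma at 3.95 are the farthest filled points of the other lists.

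The genes whose pattern over the 4 libraries was most like that of Cxcl10 were Irf7, Oasl1 and Gzma, among 14561 candidates with a mean of at least 1 CPM. Their distances to Cxcl10 were 0.244, 0.246 and 0.247, measured between log2(CPM + 0.5) values centred on each gene's mean. Gzma held 0.136 and 0.186 CPM in the ff libraries, so the added 0.5 narrowed its difference between the groups on this scale. Nearest to Ccl2 were Lrrc39, Pianp and Gm53940, at 0.0502, 0.0571 and 0.0582. With 4 libraries such likeness describes only these values.

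**Figure D5:**
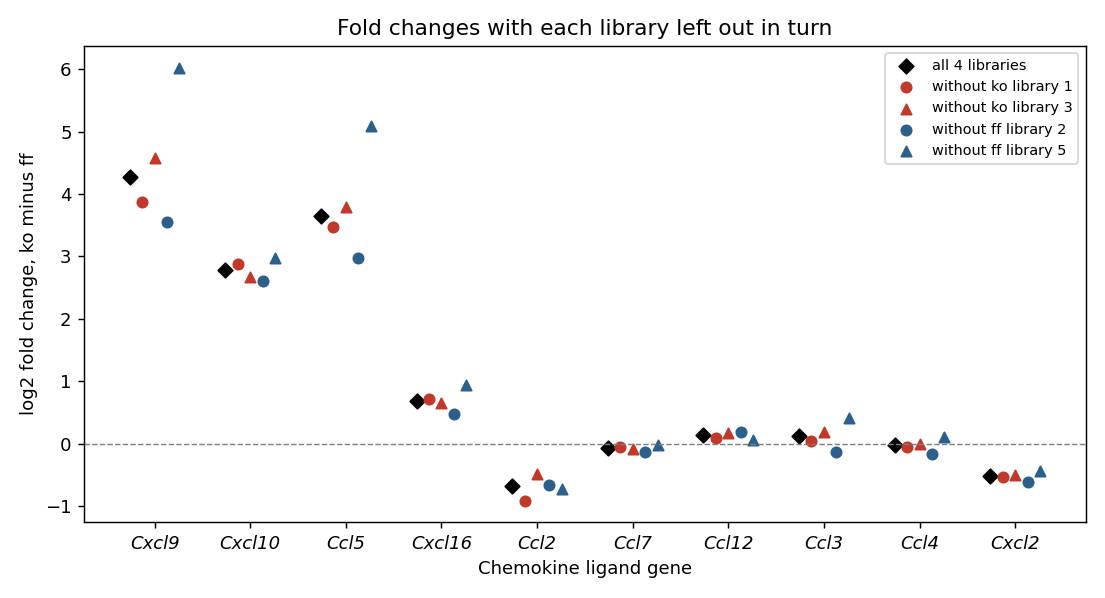
Log2 fold change (ko minus ff) of each chemokine ligand with all 4 libraries (black) and without each library in turn (red, a ko library left out; blue, an ff library left out). Cxcl9 ranges from 3.55 to 6.03 and Ccl5 from 2.98 to 5.08, Cxcl10 stays between 2.61 and 2.98, Ccl2 stays below 0 and Ccl3 and Ccl4 lie on both sides of 0.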

How the data were processed

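The authors isolated poly(A) RNA from TRIzol extracts, per the labels' protocols, and aligned 150-bp reads with HISAT2 2.0.5 against GRCm39, according to the submitters' processing notes and design text. How reads were counted, with which strand setting and gene annotation, is not given in the sources used here. Raw whole-number counts per gene for 4 libraries were deposited by the authors; 3 lines of stray annotation text were left out. Libraries were grouped by title. Within each group the counts differed beyond sampling noise (chi-square over its degrees of freedom 13.9 in ko and 7.25 in ff). Total counts per library were 14814846 to 18990917.

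Genes were filtered with filterByExpr, which left 15840, scaled with TMM and fitted in edgeR 4.0.16 (R 4.3.3), whose quasi-likelihood test was run in its robust form. Benjamini-Hochberg adjustment covered all tested genes, and the threshold was 0.05. CPM use the scaled library sizes, errors are SE from the fit, and 95% intervals use its degrees of freedom. The script was checked on simulated counts. Alternatives were DESeq2 1.42.0, limma-voom (limma 3.58.1), scaling by DESeq2 size factors or by library total alone, omitting the filter or requiring 50 counts in at least 2 libraries, and leaving out each library.

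The ligands and the other gene lists were chosen with earlier results of these data known. The genes named are all ligands, Hat1, list genes past the threshold, or, where a list had none, its 2 most counted genes, plus the genes nearest in pattern to Cxcl10 and Ccl2; P2ry12, Mrc1, Cxcr3, Cd3d, Cd3e, Cd3g, Nkg7, Gzmb, Ncr1, Ddx3y, Xist and S100a8 are named beside this rule, chosen with their values seen. The values of 1 further list gene past the threshold are not reported here. Counting intervals and floors cover counting error only. Promoter windows are from RefSeq on GRCm38.p6, another build than that of the counts.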

Additional observations from a re-analysis of the deposited data

How the results depend on the processing

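Among the 10 alternatives, Cxcl10 kept its direction and its call in all 10. Cxcl9 and Ccl5 kept theirs in 9 each and missed the threshold with limma-voom. Ccl2 was called lower in 4 of 10: with DESeq2, with no filter, without ko library 1 and without ko library 3. By edgeR its adjusted p was 2.35e-16 with no filter, where 1386 genes passed. It was 0.0952 by edgeR when 50 counts were required in at least 2 libraries. The number of ligands past the threshold was 1 with limma-voom and 3 to 4 with each library left out. The number of genes past the threshold over the whole table was 270, against 566 with DESeq2, 175 with limma-voom, 1386 with no filter, and 198 to 1213 with each library left out. In the other fixed lists it was 13, against 8 with limma-voom, 35 with no filter, and 14 to 28 with each library left out. The ratio of the summed ligand level was 0.686, between 0.608 and 0.765 with each library left out, and 1.06 without Ccl2. The sign of the log2 fold change turned for Ccl3, which ranged from -0.14 to 0.41, and for Ccl4, from -0.16 to 0.11, with each library left out. The cause of these differences was not tested. No paired analysis was possible because the ko and ff titles share no replicate number. With 2 libraries a group, and as few as 2 counts of Cxcl9 and Ccl5 in ff library 2, the fold of these ligands is known less well than its direction.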

Other observations

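Several genes of the same lists are given as values because they lay near the threshold or had few counts, and they were chosen after their values were seen. Ccl22, a ligand of Ccr4 made by dendritic cells and macrophages, had 15 and 17 counts in ko libraries 1 and 3, against 44 and 61 counts in ff libraries 2 and 5 (log2 fold change -1.86 ± 0.39 (SE), edgeR adjusted p = 0.0653). Cxcl12, the Cxcr4 ligand that mesenchymal and vascular cells also make, had 149.9 and 134.9 CPM in ko libraries, against 73.8 and 98.3 CPM in ff libraries (log2 fold change 0.73 ± 0.14 (SE), edgeR adjusted p = 0.0751). Ifng, which encodes interferon gamma, had 7 and 5 counts in ko libraries and 0 counts in both ff libraries. Set against a floor of 3 counts over the ff group, its ko counts came to 3.55-fold. This is no lower bound, as the 95% counting interval of the ratio of summed counts began at 2.47. Ifng had too few counts to be tested.

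The genes whose RefSeq models overlap those of the ligands held few counts. Art3, which overlaps Cxcl10, had 7 and 32 counts in ko libraries 1 and 3, against 4 and 14 counts in ff libraries 2 and 5. Zmynd15, which overlaps Cxcl16, had 33 and 38 counts in ko libraries, against 12 and 23 counts in ff libraries. Gm32650, which overlaps Ccl5, had 6 and 2 counts in ko libraries, against 2 and 0 counts in ff libraries. Each had fewer counts than its ligand in the ko libraries. In ff library 2, however, Gm32650 and Ccl5 had 2 counts each, and in ff library 5 Art3 had 14 counts against 26 of Cxcl10.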
